A study of Mus musculus with 21 samples.

Results

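The genes described here are 10 members of the AP-1 and immediate early gene programme: Fos, Fosb, Jun, Junb, Jund, Atf3, Egr1, Ier2, Ier3 and Myc. They were chosen by name, and each matched 1 gene in each of the 3 deposited tables, which hold 54532 genes for the CCl4 livers, 54532 genes for the cultured hepatocytes and 34280 genes for the TAA livers. Levels are FPKM, fragments scaled to gene length and library size, so they can be set side by side between genes of a library, and groups were compared within a table only.

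The study's title concerns STING, an adaptor that responds to cytosolic DNA, and the NLRP3 inflammasome in hepatocyte death during liver fibrosis. It comprises 21 mouse RNA-seq libraries, 3 in each of 7 groups. Wild-type livers came from mice injected intraperitoneally with olive oil or with carbon tetrachloride (CCl4), a hepatotoxin, for 6 weeks by the sample labels, whereas the design text gives 8 weeks for CCl4. A further group of that table received CCl4 and is labelled Sting knockout, although its titles carry codes that begin with SWT; an oil group of that genotype was not analysed here. Livers of wild-type mice and of mice with Nlrp3 deleted in hepatocytes came after 8 weeks of thioacetamide (TAA), another hepatotoxin, so both TAA groups carry the injury and no liver without TAA was analysed here. Wild-type primary hepatocytes in culture received lipopolysaccharide (LPS, 1 µg/mL) for 6 h and nigericin (10 µM), an ionophore that activates NLRP3, for 30 min, and 3 of the 6 libraries had first received the NLRP3 inhibitor MCC950 (10 µM) for 2 h. All cultured cells were thus stimulated. The labels give no allele, Cre driver, sex or age for the mice.

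AP-1 is a dimer of basic leucine zipper proteins, in which a Jun protein pairs with itself, with a Fos protein or with an ATF protein. Immediate early genes such as Fos, Egr1 and Ier2 are switched on within minutes of a growth factor or stress signal without new protein synthesis, and their RNA is short lived. Jund RNA is more steadily present in many tissues. In liver these genes are known for their rise after partial hepatectomy and toxic injury, and c-Jun for its part in hepatocyte proliferation and survival.

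The promoters of 7 of the 10 members were found in RefSeq's table (GRCm38.p6, the same assembly as mm10); those of Egr1, Ier2 and Myc are not shown. The 150 bases before the annotated start are given 5′ to 3′ for Atf3, Jun, Junb and Fos. Atf3 was called in the CCl4 livers and Junb in the TAA livers, Jun missed the threshold in the CCl4 livers, and Fos is the founding member. Ier3, also called in the CCl4 livers, is not shown, nor are Fosb and Jund. Capitals mark matches, on either strand, to the CRE core TGACG, the CRE-like AP-1 site TGACNTCA, the TATA box TATAAA and the CCAAT box CCAAT.
Fos, chr12:85473740-85473889, plus strand: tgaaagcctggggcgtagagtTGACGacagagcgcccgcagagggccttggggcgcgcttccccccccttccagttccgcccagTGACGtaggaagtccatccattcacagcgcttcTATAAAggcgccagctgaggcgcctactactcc
Jun, chr4:95052223-95052372, minus strand: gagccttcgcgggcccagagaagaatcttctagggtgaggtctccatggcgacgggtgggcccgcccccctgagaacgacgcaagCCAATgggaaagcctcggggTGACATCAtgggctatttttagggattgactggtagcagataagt
Junb, chr8:84978749-84978898, minus strand: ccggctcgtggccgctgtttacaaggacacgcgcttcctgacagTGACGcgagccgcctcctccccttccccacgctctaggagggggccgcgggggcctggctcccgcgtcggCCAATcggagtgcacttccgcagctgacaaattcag
Atf3, chr1:191183334-191183483, minus strand: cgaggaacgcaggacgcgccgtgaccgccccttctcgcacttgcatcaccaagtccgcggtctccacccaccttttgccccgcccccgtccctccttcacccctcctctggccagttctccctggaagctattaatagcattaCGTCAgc
Among these 4 stretches the letters of the CRE core stood in those of Fos, at 2 places, Junb and Atf3, and those of the CRE-like AP-1 site in that of Jun, 45 to 38 bases before the start. The Fos stretch alone of the 4 held a TATA box, and those of Jun and Junb held a CCAAT box. Of 32851 promoter stretches of the same length, 13.3% held a CRE core, 5.70% the CRE-like AP-1 site, 7.57% the TATA box and 24.5% the CCAAT box. The classical AP-1 site TGANTCA (4.24% of all stretches), the EGR site GCGNGGGCG (3.81%) and the CArG box (0.916%) were searched too and were absent from these 4 stretches, and no match overlapped another. Of the stretches found but not shown, those of Ier3 and Jund held none of the motifs searched. That of Fosb held a CRE core and an EGR site. The Atf3 entry starts 34706 bases inside the deposited gene, at an internal start site.

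Total reads worked back from the FPKM were 14353483 to 16684832 per library in the CCl4 table and 14883710 to 17157586 in the hepatocyte table, and counts were 32096879 to 68913793 per TAA library. The RNA of Sting1, listed as Tmem173, was at 6.10, 5.15 and 4.74 FPKM in wild-type CCl4 livers and at 3.42, 1.98 and 5.28 FPKM in the livers labelled Sting knockout, where 1 library lay inside the wild-type range. Oil livers were at 0.885, 1.23 and 1.46 FPKM. Nlrp3 was at 0.15, 0.11 and 0.17 FPKM in wild-type TAA livers and 0.08, 0.37 and 0.25 FPKM in the livers labelled as deleted. Its RNA was thus not lower in that group, in whole liver that also holds other cells. The deletion is taken from the labels throughout. Hepatocyte markers dominated the cultured cells, with a sum of 37841 to 43477 FPKM over 10 genes. Their 10 stellate and myofibroblast markers summed to 1.31 to 1.70 FPKM, with Col1a1 and Acta2 at 0 in all 6 libraries, and their 10 macrophage markers to 27.97 to 35.6 FPKM, with Vsig4 at 0. Nothing in the labels says that replicates were separate mice or separate cultures, and the p-values then measure the spread between these libraries, which may be technical.

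One library bears on several members and is described first. In wild-type CCl4 replicate 3, genes of low GC content were high and genes of high GC content were low. The 1442 genes of at most 42% GC stood 0.38 above their mean of 9 libraries on the log2(FPKM + 1) scale by the median, and the 168 genes above 62% GC fell by 0.97 below it. Oil replicate 3 had the same slope in a milder form, from 0.32 to −0.27, and the other 7 libraries lay between −0.18 and 0.35 in these 2 classes. Jund, at 67.2% GC, and Junb, at 62.6% GC, are the most GC-rich members, and in wild-type CCl4 replicate 3 they stood at −2.37 and −1.52 from their means, lower than the median of their GC class. Fos, at 51.9% GC, stood at −0.07. This library was the lowest of its group for 9 of the 10 members. The part of GC content in the results was not tested beyond the fits given with and without this library and with a GC adjustment.

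**Figure D1:**
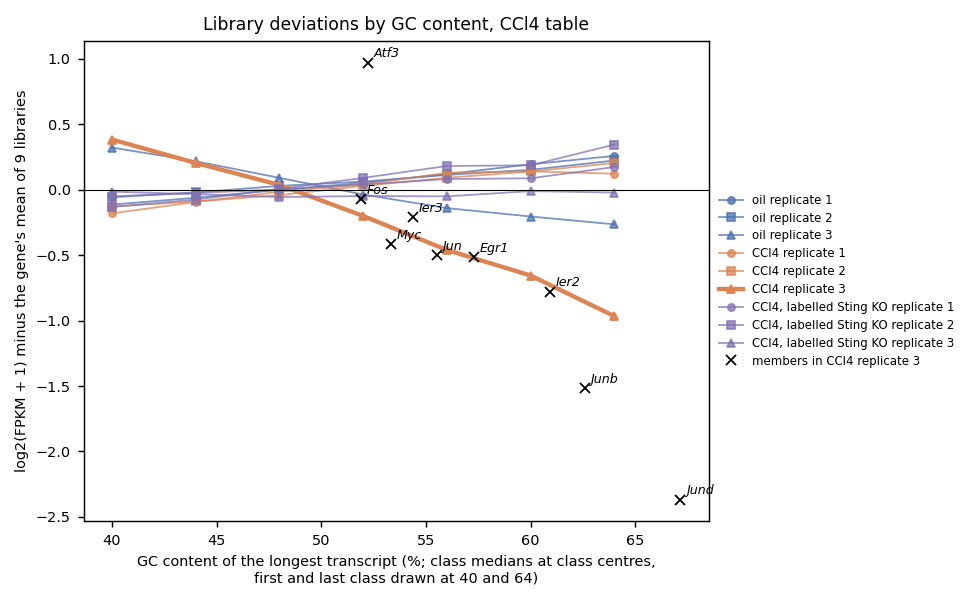
Median deviation of each CCl4-table library (lines, log2(FPKM + 1) minus the gene's mean of 9 libraries) against GC content of the longest transcript in percent, with the 9 members above the filter in wild-type CCl4 replicate 3 as crosses. The thick line of that library falls from 0.38 to −0.97, and Jund lies lowest at −2.37.

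In the CCl4 livers, Atf3 and Ier3 RNA rose against oil and no tested member fell. The rise of Atf3 was 19.2-fold in mean FPKM and that of Ier3 was 3.48-fold. Jun was higher in all 3 CCl4 livers than in any oil liver but its difference missed the threshold, and Fos, Egr1, Ier2, Junb, Jund and Myc had overlapping groups. Of the 9 members with a mean of at least 1 FPKM, 2 were called higher and 0 lower by limma at an adjusted p under 0.05, where 9.19% and 6.15% of all 11511 genes tested were called. The median log2 fold change was 0.48 over the 9 members and −0.08 over all genes. In 3 of the 9 every CCl4 library lay above every oil library, against 16.6% of all genes, and in 0 the reverse, against 21.4%. Because these are whole livers, a change in the number of cells of a type and a change in RNA per cell cannot be told apart.

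**Figure D2:**
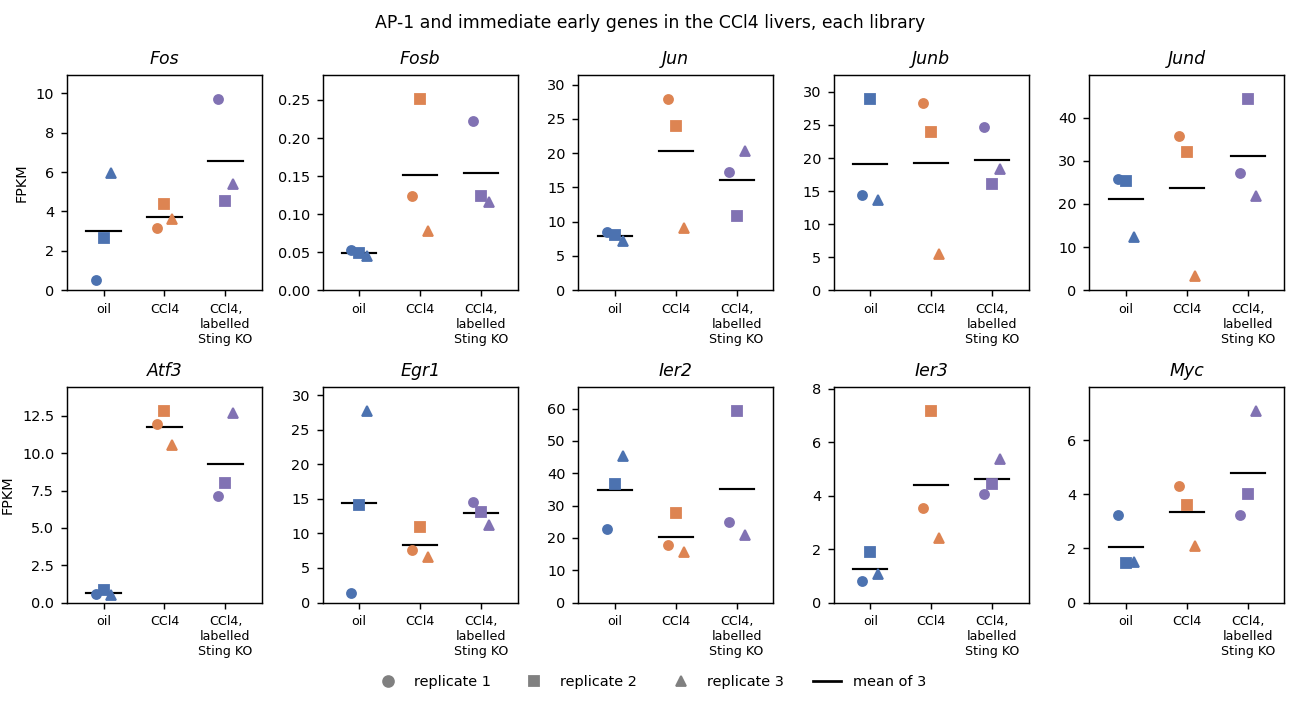
FPKM of the 10 members in each of the 9 libraries of the CCl4 table, with 1 symbol per replicate number and a bar at the mean of 3. Atf3 lies at 0.478 to 0.816 in oil and at 7.13 to 12.8 in both CCl4 groups, and wild-type CCl4 replicate 3 (triangle) is low for Jun, Junb and Jund.

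The Fos proteins have no dimer among themselves and need a Jun partner. Fos (chromosome 12, 85473890 to 85477273, plus strand, mm10) was at 0.503, 2.63 and 5.93 FPKM in oil livers and at 3.16, 4.39 and 3.61 FPKM in wild-type CCl4 livers. It was at 9.73, 4.54 and 5.41 FPKM in the livers labelled Sting knockout. The oil livers alone spanned the range of the wild-type CCl4 livers, and the log2 fold change of 0.48 ± 0.46 (SE) was not called (limma, adjusted p = 0.563). Fos was lowest in oil replicate 1, and without that library its difference was −0.10. Fosb (chromosome 7, 19302696 to 19310051, minus strand), which encodes another Fos protein, was near the limit of detection. It had 5, 4 and 3 reads in oil livers, 14, 30 and 9 in wild-type CCl4 livers and 24, 10 and 14 in the livers labelled Sting knockout. All 6 CCl4 libraries lay above the 3 oil libraries at 0.049 ± 0.004 FPKM in oil (SD, n = 3), 0.151 ± 0.090 in wild-type CCl4 and 0.154 ± 0.060 in the labelled group. An exact two-sided permutation test gave p = 0.1 for either CCl4 group against oil, the smallest that 3 against 3 libraries can give, and 0.2 after adjustment over 4 comparisons.

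Of the Jun proteins, c-Jun is the strongest activator. Jun (chromosome 4, 95049034 to 95052222, minus strand) was at 8.45, 8.01 and 7.22 FPKM in oil livers, at 27.96, 23.9 and 9.02 FPKM in wild-type CCl4 livers and at 17.3, 10.8 and 20.3 FPKM in the livers labelled Sting knockout. All 6 CCl4 libraries were above all 3 oil libraries, with wild-type CCl4 replicate 3 only just so. The log2 fold change of wild-type CCl4 over oil was 1.12 ± 0.38 (SE; limma, adjusted p = 0.0746). Jun was called in 4 of 19 alternatives. It was called without wild-type CCl4 replicate 3 (1.60, limma adjusted p = 0.00603), after the GC adjustment (1.17, limma adjusted p = 0.0266) and by edgeR on the recovered reads (1.35, adjusted p = 0.0291). The GC adjustment with a term for replicate number called it too (limma, adjusted p = 0.0398). The highest adjusted p was 0.214 (limma), at a log2 fold change of 0.83 without wild-type CCl4 replicate 1. The antisense gene Junos overlaps Jun but was at a mean of 0.174 FPKM.

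Junb often opposes c-Jun, and Jund is linked to quiescence. Junb (chromosome 8, 84974484 to 84978718, minus strand) was at 14.5, 29.0 and 13.7 FPKM in oil livers, at 28.2, 23.9 and 5.54 FPKM in wild-type CCl4 livers and at 24.8, 16.1 and 18.4 FPKM in the livers labelled Sting knockout. Jund (chromosome 8, 70698949 to 70700616, plus strand) was at 25.8, 25.4 and 12.2 FPKM in oil livers, at 35.7, 32.1 and 3.35 FPKM in wild-type CCl4 livers and at 27.3, 44.4 and 21.9 FPKM in the labelled group. The ranges of the groups overlapped for both. Their log2 fold changes of wild-type CCl4 over oil were −0.17 ± 0.52 for Junb and −0.27 ± 0.70 for Jund (SE; limma, adjusted p = 0.876 and 0.855). The signs were not stable: without wild-type CCl4 replicate 3 they were 0.51 and 0.73, and neither was called. Junb was also positive without oil replicate 2, at 0.16. EdgeR on recovered reads, with all libraries kept, gave 0.0031 for Junb and 0.15 for Jund. With the GC adjustment the limma values were −0.01 for both. The 3′ end of Junb overlaps Prdx2 on the other strand, which averaged 41.98 FPKM in these libraries. No label or header says whether counting used strand. The overlap may thus have raised or lowered the reads counted for Junb, here and in the TAA livers.

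Atf3 encodes a stress-induced protein that pairs with Jun proteins and represses many targets. Atf3 (chromosome 1, 191170296 to 191218039, minus strand) was at 0.549, 0.816 and 0.478 FPKM in oil livers, with 11 to 23 reads. It was at 11.9, 12.8 and 10.6 FPKM in wild-type CCl4 livers, with 423 to 528 reads, and at 7.13, 8.04 and 12.7 FPKM in the livers labelled Sting knockout. The groups did not overlap, and wild-type CCl4 replicate 3 was close to the other replicates. Mean FPKM rose from 0.615 ± 0.178 to 11.8 ± 1.15 (SD, n = 3 each). The log2 fold change was 2.99 ± 0.22 after adding 1 to each FPKM, a step that compresses the folds of weakly expressed genes (SE; limma, adjusted p = 5.29e-05), and 4.24 on recovered reads (edgeR, adjusted p = 4.585e-05). Atf3 was called in all 19 alternatives of this comparison.

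Egr1 (chromosome 18, 34859823 to 34864984, plus strand) encodes a zinc finger factor induced through serum response factor. It was at 1.35, 14.1 and 27.7 FPKM in oil livers, at 7.54, 10.99 and 6.60 FPKM in wild-type CCl4 livers and at 14.5, 13.2 and 11.2 FPKM in the livers labelled Sting knockout. Both CCl4 groups lay inside the oil range, and the log2 fold change of −0.13 ± 0.70 was not called (SE; limma, adjusted p = 0.933). Ier2 (chromosome 8, 84661331 to 84662852), which encodes a nuclear protein, was at 22.7, 36.7 and 45.2 FPKM in oil livers and at 17.6, 27.6 and 15.6 FPKM in wild-type CCl4 livers. It was at 25.0, 59.3 and 20.8 FPKM in the labelled group. Oil replicate 1 was the lowest oil library and oil replicate 3 the highest for each of Fos, Egr1 and Ier2. The difference of Ier2 was −0.74 ± 0.41 (SE; limma, adjusted p = 0.28).

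Ier3, also called IEX-1, encodes a regulator of cell survival. Ier3 (chromosome 17, 35821684 to 35822923, plus strand) was at 0.813, 1.89 and 1.08 FPKM in oil livers, with 13 to 28 reads, and at 3.55, 7.18 and 2.43 FPKM in wild-type CCl4 livers, with 51 to 155 reads. It was at 4.05, 4.44 and 5.39 FPKM in the livers labelled Sting knockout. All 6 CCl4 libraries exceeded all 3 oil libraries. The log2 fold change was 1.18 ± 0.31 (SE; limma, adjusted p = 0.0257). It was not called without oil replicate 1, oil replicate 3 or wild-type CCl4 replicate 2 (limma, adjusted p up to 0.103), nor without the filter on low genes (adjusted p = 0.0795). Myc (chromosome 15, 61985391 to 61990374, plus strand), a proto-oncogene that drives cell growth, was at 3.24, 1.46 and 1.48 FPKM in oil livers and at 4.31, 3.61 and 2.08 FPKM in wild-type CCl4 livers. It was at 3.24, 4.01 and 7.10 FPKM in the labelled group, and its difference of 0.51 ± 0.32 between wild-type CCl4 and oil was not called (SE; limma, adjusted p = 0.33).

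The livers labelled Sting knockout were compared with the same oil libraries, so the 2 comparisons share their controls. Atf3 and Ier3 were again higher than in oil, with log2 fold changes of 2.64 ± 0.22 and 1.34 ± 0.31 (SE; limma, adjusted p = 0.000103 and 0.0170). These 2 of 9 members were called higher and 0 lower, against 8.00% and 5.91% of 11511 genes. Without oil replicate 1, oil replicate 3 or labelled replicate 3, Ier3 was not called. In 4 members, Jun, Atf3, Ier3 and Myc, every library lay above every oil library, against 17.8% of all genes, and in 0 the reverse, against 19.8%. For Myc this rests on 3.242 against 3.24 FPKM in the nearest pair of libraries, which is no measurable gap. Fos differed by 1.11 ± 0.46, Jun by 0.91 ± 0.38 and Myc by 0.91 ± 0.32, none of them called (SE; limma, adjusted p = 0.144, 0.148 and 0.083). Jun was called in the 2 groups alone (limma, adjusted p = 0.0478) and without wild-type CCl4 replicate 3 (limma, adjusted p = 0.0353), which enters only the shared estimate of spread. Fos was called without oil replicate 3 (1.63, limma adjusted p = 0.0397).

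Between the livers labelled Sting knockout and wild-type livers under CCl4, no member was called. The same held for all genes: 0% of 11511 were called by limma and 0 by edgeR on recovered reads, while 366 and 662 genes had an unadjusted p under 0.05, none of them a member in the limma fit. Fos and Egr1 were higher in every labelled library than in every wild-type library, which held for 2.35% of all genes, and 0 members the reverse, against 2.78%. Fos differed by 0.63 with a 95% interval of −0.40 to 1.65 and Egr1 by 0.59 with an interval of −0.96 to 2.15 on the log2 scale. Atf3 was lower by 0.35 on that scale, with an interval of −0.84 to 0.15, so a difference of up to 0.84 downward is inside it. Jund was at 0.82 with an interval of −0.73 to 2.38, and at −0.18 without wild-type CCl4 replicate 3. The intervals of all 9 members span 0, and they do not show that the groups act alike.

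**Figure D3:**
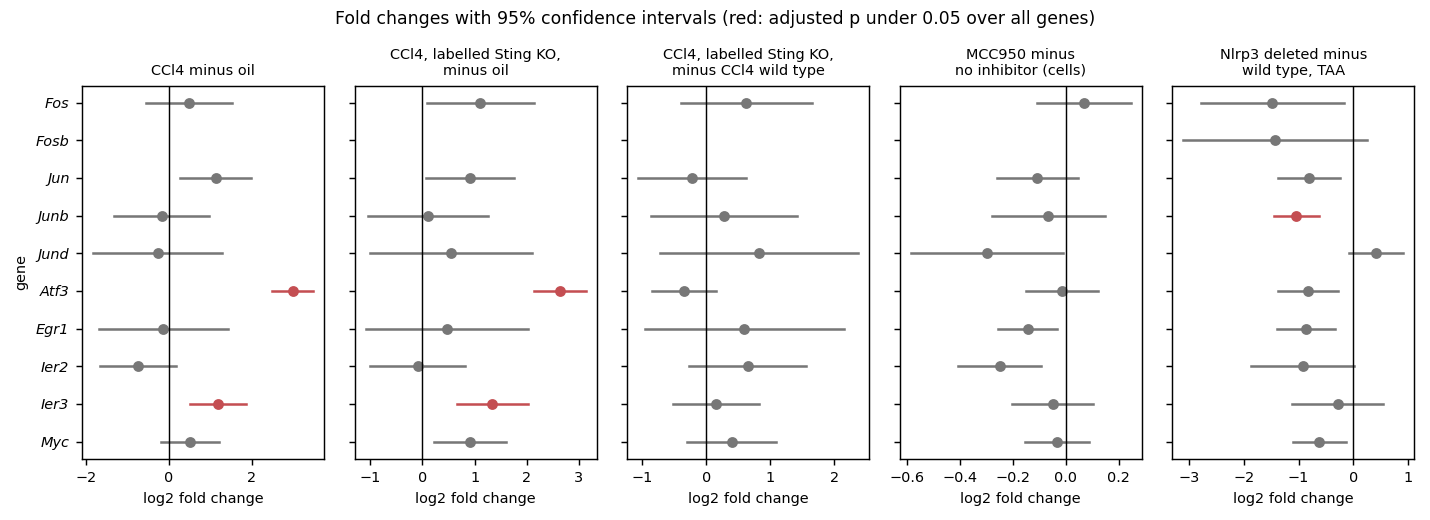
Log2 fold change of each tested member (points) with its 95% confidence interval (bars) in the 5 comparisons, each panel on its own scale, by limma on log2(FPKM + 1) in the first 4 and by edgeR on counts in the last. Atf3 and Ier3 are called against oil in both CCl4 groups, Junb is called in the TAA livers, and 0 members are called between the CCl4 groups or with MCC950.

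Around the members, lists of related genes were counted in the wild-type CCl4 against oil comparison, where 9.19% of all genes tested rose and 6.15% fell. Of 12 tested genes of the wider AP-1 family, Jdp2, a repressor that pairs with Jun proteins, rose from 0.636 to 2.63 FPKM and Batf, known from lymphocytes, from 0.541 to 1.91 FPKM (limma, adjusted p = 0.00326 and 0.026), and 0 fell. Among 24 further immediate early genes 6 rose and 0 fell, with a median log2 fold change of 0.70. The 3 of smallest p were the zinc finger factor Klf6, which went from 2.30 to 11.6 FPKM, the matricellular gene Ctgf, from 1.10 to 8.38 FPKM, and the stress gene Gadd45b, from 0.810 to 3.57 FPKM. Of 11 MAP kinase feedback genes 1 rose, near the share of all genes: the ERK phosphatase Dusp5, from 0.591 to 2.75 FPKM, and of 19 kinases of the cascade itself 0 were called. Of 9 serum response and CREB factors 1 rose, Elk3.

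Of 13 genes known as AP-1 linked targets, 11 rose and 0 fell, with a median log2 fold change of 2.06, where 9.19% and 6.15% of all genes did. One of the 11, Spp1, is also in the cholangiocyte marker list, whose 8 genes summed to 36.9 to 43.4 FPKM in oil and 63.5 to 298 FPKM in wild-type CCl4 livers. The collagenase Mmp13 went from 0.072 to 3.02 FPKM, the adhesion receptor Cd44 from 1.83 to 10.9 FPKM and the macrophage elastase Mmp12 from 0.055 to 16.9 FPKM. Of 15 MYC targets 0 were called, and of 10 genes of the MYC network 1 rose, near the share of all genes: Mxd3, from 0.022 to 1.82 FPKM. Cell type markers moved in the same livers. The 10 macrophage markers summed to 296 to 436 FPKM in oil and 1106 to 1622 FPKM in wild-type CCl4 livers, with 6 of 9 tested called higher. The 10 stellate and myofibroblast markers summed to 47.9 to 61.3 and 200 to 418 FPKM, with 6 of 9 called higher, and the 8 neutrophil markers to 5.93 to 16.4 and 65.4 to 140 FPKM, with 4 of 5 called higher. All 8 cycling markers were called higher, with sums of 1.04 to 2.19 and 54.9 to 109 FPKM, and 2 of 10 hepatocyte markers, Cyp2e1 and Hpd, were called lower. In the livers labelled Sting knockout the sums were 934 to 1442 FPKM for macrophage, 257 to 460 for stellate and myofibroblast, 79.1 to 189 for neutrophil and 57.5 to 86.0 for cycling markers. No marker of these lists was at 0 in all libraries of a group, and their part in the results for the members was not tested.

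The genes whose pattern lay nearest to a member's over the 9 libraries of the CCl4 table were found by the root mean square distance of z-scored log2(FPKM + 1) among 11511 genes. For Atf3 these were Gpnmb, Ccdc80 and Rftn1, at distances of 0.090, 0.111 and 0.119. Gpnmb went from a mean of 0.052 FPKM in oil to 28.2 in wild-type CCl4 and 16.3 in the labelled group. For Jun they were Ppp1r9b, Efhd2 and Ppp1r18, at 0.174 to 0.215, and for Myc Plscr3, Map1s and Mfsd10, at 0.373 to 0.417. Fos and Egr1 had no neighbour as near: Snai2 was the nearest for both, at 0.473 and 0.568, followed by Gm7846 and Mphosph10 for Fos and by Gm14176 and Crnkl1 for Egr1. Among members the distance was 0.594 between Fos and Egr1 and 0.495 between Atf3 and Ier3. These libraries share groups, depth and the GC pattern above, so the distances are a description.

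In stimulated hepatocytes, MCC950 was followed by no called change in a member. Levels were close between replicates for most members, but Jund ran from 75.6 to 105 FPKM without MCC950 and Fosb had 3 to 13 reads. Of 9 members, 2, Egr1 and Ier2, were lower in every MCC950 library than in every library without it, against 10.8%. The reverse held for 0, against 8.88% of all 9835 genes. Limma called 0% of these genes and edgeR on recovered reads 0, although 1168 and 1535 genes had an unadjusted p under 0.05, among them Ier2, Egr1 and Jund in the limma fit. The median log2 fold change was −0.07 over the 9 members and −0.01 over all genes.

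Ier2 was at 56.0, 51.7 and 49.1 FPKM without and 43.6, 45.95 and 41.7 FPKM with MCC950, and its log2 fold change was −0.25 ± 0.07 (SE; limma, adjusted p = 0.39). Egr1 was at 18.7, 17.9 and 19.0 FPKM without and 16.8, 16.8 and 16.3 FPKM with the inhibitor, a difference of −0.14 ± 0.05 (SE; limma, adjusted p = 0.394). Jund was at 75.6, 105 and 95.9 FPKM without and 71.0, 79.4 and 72.4 FPKM with it, a difference of −0.30 ± 0.12 in overlapping groups (SE; limma, adjusted p = 0.417). These 3 are among the more GC-rich members, and with the GC adjustment added after seeing the data they were at −0.13 for Ier2, −0.05 for Egr1 and −0.13 for Jund. The median of the genes above 62% GC ranged from −0.06 to 0.18 in the libraries without and from −0.12 to 0.00 in those with MCC950.

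The other members had overlapping groups. Jun was at 26.1, 29.7 and 27.6 FPKM without and 24.6, 26.9 and 25.7 FPKM with MCC950. Atf3 was at 28.7, 31.0 and 27.3 FPKM without and 28.9, 28.7 and 28.3 FPKM with it, and the 95% interval of its log2 fold change was −0.15 to 0.12. Myc was at 37.9, 35.0 and 35.8 FPKM without and 36.2, 35.6 and 34.3 FPKM with it, with an interval of −0.16 to 0.09. Junb was at 22.6, 26.8 and 26.8 against 22.9, 26.5 and 23.1 FPKM, and Ier3 at 37.8, 39.2 and 44.0 against 38.6, 38.4 and 39.5 FPKM. Fos was at 5.87, 5.50 and 5.71 against 5.34, 6.24 and 6.52 FPKM, and Fosb had 3 to 13 reads per library. Of the wider family, Fosl1, which encodes the Fos protein Fra-1, was at 53.3 ± 5.47 FPKM without and 52.5 ± 3.14 FPKM with the inhibitor (SD, n = 3 each), above Fos in these cells. Of 9 wider AP-1 genes and 22 further immediate early genes tested 0 were called.

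In the TAA livers, Junb RNA was called lower in mice with Nlrp3 deleted in hepatocytes, a call that 4 of 13 alternatives kept. Of the 10 members, 9 had a negative log2 fold change, the exception being Jund. EdgeR called 1 of 10 members lower, where 0.360% of 18619 genes were called lower, and 0 higher, where 1.37% were. The median log2 fold change was −0.85 over the members and −0.04 over all genes. On CPM, counts scaled to library size with TMM factors, 7 members lay lower in every deleted library than in every wild-type one, against 18.7% of all genes, and 1 higher, Jund, against 17.5%. For Ier2, 1 of the 7, this rests on 34.04 against 34.1 CPM in the nearest pair of libraries, which is no measurable gap.

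**Figure D4:**
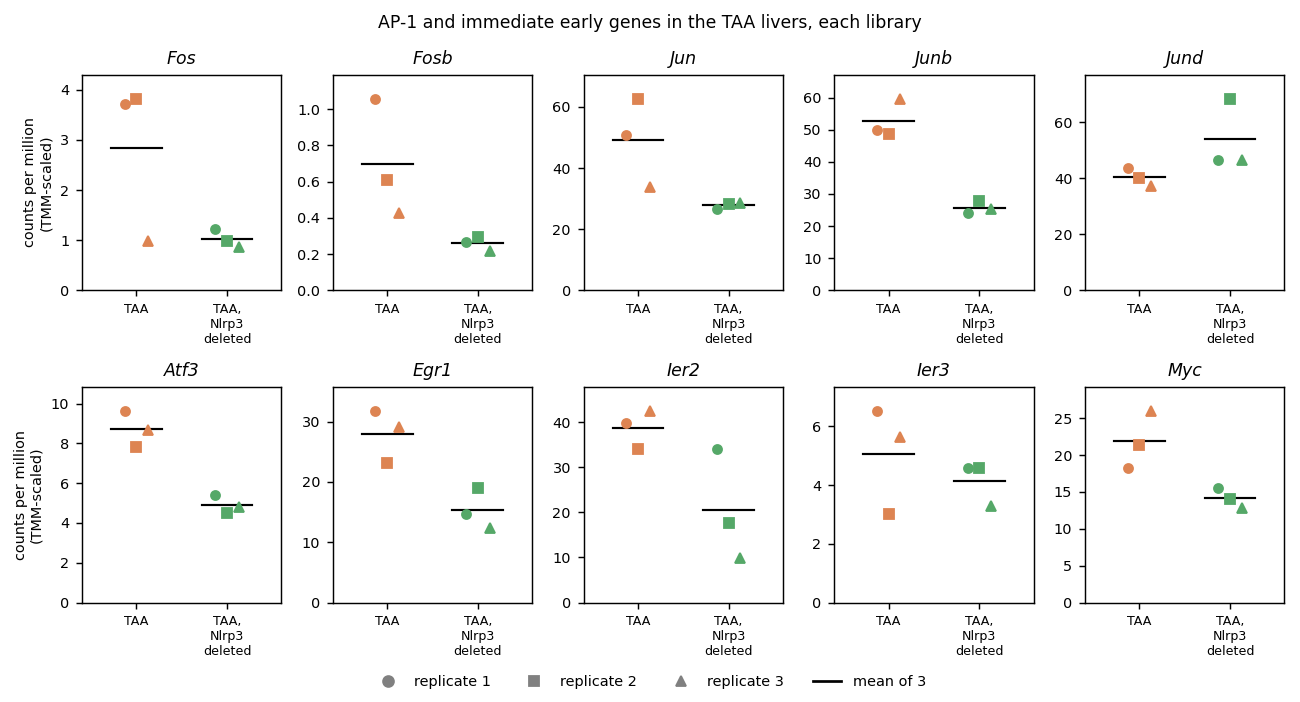
TMM-scaled CPM of the 10 members in each of the 6 TAA libraries, with 1 symbol per replicate number and a bar at the mean of 3. Junb lies at 48.6 to 59.7 in wild-type livers and 24.0 to 27.7 after the deletion, and Jund is the member with the deleted libraries above the wild-type ones.

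The scaling bears on these counts. On the deposited FPKM scale the median gene was 0.34 higher in the deleted livers (log2, 11060 genes), whereas TMM factors bring the median near 0. By FPKM 8 of 10 members had a lower mean in the deleted livers, and 2, Fosb and Junb, lay below without overlap, against 6.68% of all genes on that scale. For Fosb this rests on 0.05 against 0.04 FPKM in the nearest libraries, in values given to 2 decimals, which is no measurable gap. In 1, Jund, every deleted library lay above, against 27.8% of all genes. Deleted replicate 3 fell from a median deviation of 0.40 at up to 42% GC to −0.28 above 62% GC, on the log2(FPKM + 1) scale. Deleted replicates 1 and 2 went from −0.03 to 0.29 and from 0.24 to 0.07. The wild-type libraries went from −0.105, −0.361 and −0.153 to 0.075, −0.261 and 0.065. In deleted replicate 3 Ier2, at 60.9% GC, stood at −1.12, Junb at −0.32 and Jund at 0.20. The part of GC content was not tested beyond the GC adjustment. Hepatocyte markers summed to 10205 to 11270 FPKM in wild-type and 27352 to 34260 FPKM in deleted livers, macrophage markers to 122 to 142 and 161 to 446 FPKM, and stellate and myofibroblast markers to 24.7 to 40 and 36.2 to 101 FPKM. Sinusoidal endothelial markers summed to 36.6 to 40.3 and 46.8 to 85.1 FPKM and B and T cell markers to 4.53 to 5.86 and 7.47 to 7.89 FPKM, both without overlap, while the sums of cholangiocyte, neutrophil and cycling markers overlapped. No gene of the 5 lists given with sums was called, and their part in the results was not tested.

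Junb was at 22.4, 16.0 and 25.4 FPKM in wild-type TAA livers and at 11.6, 15.1 and 13.1 FPKM after the deletion. In TMM-scaled CPM this was 50.1, 48.6 and 59.7 against 24.0, 27.7 and 25.3, with no overlap on either scale. The log2 fold change was −1.04 ± 0.18 (SE; edgeR, adjusted p = 0.0487), close to the threshold. The call was lost with RLE factors (edgeR, adjusted p = 0.0506), with the GC adjustment (−0.73, limma adjusted p = 0.0677) and without any single library other than replicate 1 of the deleted livers (edgeR, adjusted p up to 0.196).

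Jun was at 50.8, 62.8 and 33.9 CPM in wild-type and 26.7, 28.3 and 28.7 in deleted livers, a log2 fold change of −0.82 ± 0.24 (SE; edgeR, adjusted p = 0.0826). Atf3 was at 9.64, 7.81 and 8.68 against 5.43, 4.48 and 4.80, a difference of −0.83 ± 0.24 (SE; edgeR, adjusted p = 0.0779). Egr1 was at 31.8, 23.1 and 29.2 against 14.7, 19.0 and 12.4, a difference of −0.87 ± 0.23 (SE; edgeR, adjusted p = 0.0668). On this scale the groups of all 3 were apart, while by FPKM they overlapped. DESeq2 called these 3 and Junb (adjusted p = 0.0439, 0.0397 and 0.0262 for Jun, Atf3 and Egr1). It called far more genes in all, 2036 higher and 1738 lower of 33412, where edgeR called 255 and 67 of 18619.

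Myc was at 18.2, 21.4 and 26.0 CPM in wild-type and 15.6, 14.0 and 12.9 in deleted livers, a log2 fold change of −0.63 ± 0.21 (SE; edgeR, adjusted p = 0.102). Ier2 was at 39.9, 34.1 and 42.6 against 34.0, 17.6 and 9.78, so deleted replicate 1 stood near the wild-type range. Without that library Junb, Ier2, Atf3, Egr1, Myc and Jun were all called lower by edgeR, with adjusted p from 0.00301 for Junb to 0.0425 for Jun. In that fit 3570 of all genes were called higher and 3985 lower, against 255 and 67 with it. Macrophage markers were lowest of the deleted livers in that library, at 161 FPKM against 338 and 446. The sums of hepatocyte, stellate and myofibroblast, cholangiocyte and cycling markers were lowest there too. Those of sinusoidal endothelial, neutrophil and B and T cell markers were not. The part of cell types in these calls was not tested.

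Fos was at 3.73, 3.83 and 0.987 CPM in wild-type and 1.22, 0.980 and 0.864 in deleted livers, a log2 fold change of −1.48 ± 0.57 (SE; edgeR, adjusted p = 0.136), and wild-type replicate 3 lay in the range of the deleted livers. Fosb had 48, 19 and 13 counts in wild-type and 15, 20 and 17 in deleted livers, from libraries of unequal depth. In CPM it was at 1.06, 0.606 and 0.428 against 0.264, 0.293 and 0.219, with no overlap, and its log2 fold change of −1.43 ± 0.73 was not called (SE; edgeR, adjusted p = 0.234). Ier3 was at 6.53, 2.998 and 5.62 CPM against 4.58, 4.56 and 3.29, with overlapping groups. Jund was at 21.1, 14.3 and 17.2 FPKM against 24.4, 40.4 and 26.2 FPKM, and at 43.6, 40 and 37.3 against 46.6, 68.4 and 46.4 CPM. Its log2 fold change was 0.42 ± 0.21 (SE; edgeR, adjusted p = 0.239). Of 13 wider AP-1 genes, 28 further immediate early genes and 14 AP-1 linked targets tested in these livers, 0 were called by edgeR; of the MYC network Mga was called lower, of the MYC targets Ldha was called higher, and of the cycling markers Mki67 was called lower.

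The share of each Jun gene was taken within each library. Jund made up 53.0, 40.7 and 36.9% of the summed Jun, Junb and Jund FPKM in oil livers, 38.9, 40.2 and 18.7% in wild-type CCl4 livers and 39.3, 62.3 and 36.1% in the livers labelled Sting knockout. It made up 60.9, 65.1 and 63.8% in stimulated hepatocytes and 59.9, 59.8 and 59.7% with MCC950. In the TAA livers it made up 37.5, 34.0 and 33.9% in wild-type mice and 56.3, 62.9 and 54.8% after the deletion, with no overlap. The difference there was 22.9 percentage points, and that with MCC950 was −3.44 points; the two-sided p of each was 0.1 by exact permutation, the smallest possible, and 0.25 after adjustment over 5 comparisons. The differences against oil were −10.9 points for wild-type CCl4 and 2.41 points for the labelled group (exact permutation, adjusted p = 0.625 and 0.9), and that between the CCl4 groups was 13.4 points (adjusted p = 0.625). Without wild-type CCl4 replicate 3 the first became −4.01 points and the last 6.41 points.

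**Figure D5:**
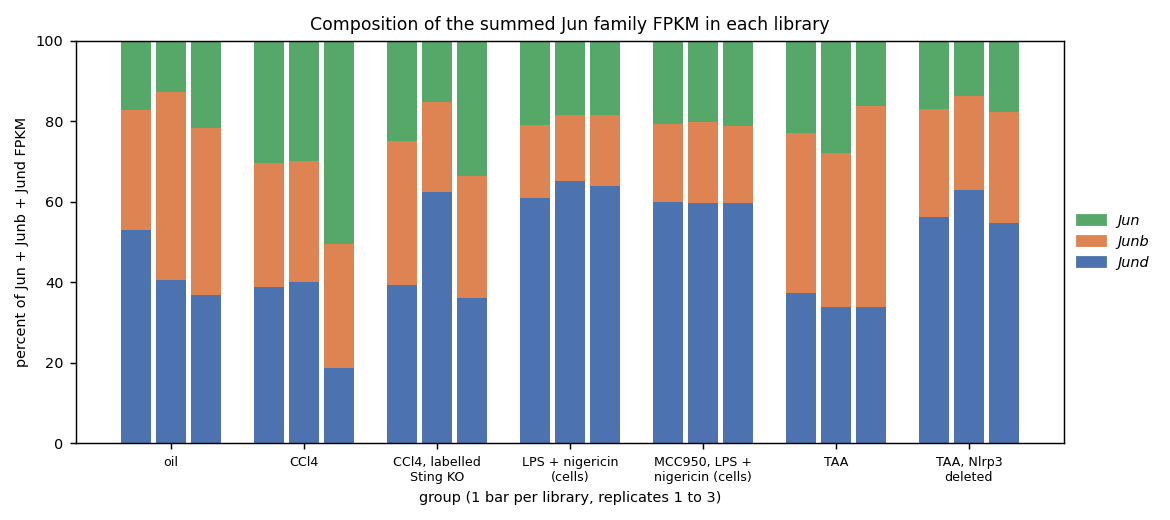
Percent of the summed Jun, Junb and Jund FPKM made up by each gene, 1 stacked bar per library in 7 groups of 3. Jund takes 33.9 to 37.5% in wild-type TAA livers and 54.8 to 62.9% after the deletion, and wild-type CCl4 replicate 3 has the smallest Jund part, 18.7%.

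By mean FPKM the members stood in a different order in each table. In oil livers Ier2 was highest at 34.9 FPKM, followed by Jund, Junb and Egr1, and these neighbours overlapped between libraries. In wild-type CCl4 livers Atf3 ranked 5 of 10, at 11.8 FPKM, where it ranked 9 in oil. In stimulated hepatocytes Jund, at 92.3 FPKM, lay above Ier2, at 52.2 FPKM, without overlap, and then came Ier3 and Myc, which overlapped each other. In wild-type TAA livers Junb, Ier2 and Jund overlapped at 21.3, 18.7 and 17.5 FPKM, and after the deletion Jund was highest at 30.3 FPKM with no overlap with Junb at 13.3 FPKM. Fosb was the lowest member in all 7 groups. The 3 tables were normalized separately, so levels between them were not compared.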

How the data were processed

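RNA-seq was deposited as 3 tables for 21 libraries. The submitters' processing notes name HISAT2 2.2.1, featureCounts 1.5.0-p3 and the build mm10; they do not give strand handling. Per the file headers, the authors deposited FPKM in all 3 tables and raw counts for TAA. In the 2 tables without counts, dividing FPKM × length by each library's smallest unit left whole reads for 100% of values (tolerance 0.05), and these are the recovered reads; 0 columns of values lacked a sample.

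FPKM tables were tested with limma 3.58.1 on log2(FPKM + 1), with the prior variance following mean level, for genes averaging 1 FPKM or more, the 3 CCl4-table groups in 1 fit; TAA counts with edgeR 4.0.16 (quasi-likelihood, TMM, filterByExpr). A call is a two-sided Benjamini-Hochberg adjusted p under 0.05 over all genes tested. R was 4.3.3 and DESeq2, an alternative, 1.42.0. The scripts were tested on simulated data. Shares in percent were computed from the deposited FPKM and compared by exact permutation. GC content came from the longest GENCODE M21 transcript (at least 99.9% of genes); the GC adjustment, chosen after seeing the data, removed each library's lowess curve against GC. Replicate numbers come from the titles. Same-numbered libraries deviated together (correlations over 0.1 in every pair) for CCl4 against oil (0.22, 0.32 and 0.52) and the labelled Sting knockout against wild type (0.19, 0.18 and 0.12), from the data alone, and not in the other 3 comparisons.

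The text names the 10 members, called genes of the wider AP-1 family, up to 3 called genes of smallest p in each other list, and the 3 genes nearest in pattern to each of 5 members; Fosl1, Junos and Prdx2 were named after their values were seen. Members, lists and tests were chosen with earlier results of these data known.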

Additional observations from a re-analysis of the deposited data

How the results depend on the processing

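Atf3 kept its call and direction against oil under every alternative run, in both CCl4 groups, and no alternative called a member between the CCl4 groups or with MCC950. Members called against oil numbered 1, Atf3, rather than 2 in either CCl4 group with no filter on low genes and at a minimum mean of 5 FPKM, which leaves 6 members and removes Ier3; leaving out single libraries gave 1 to 3 in each. For TAA, 1 called member became 0 with RLE factors, with the replicate block, with the GC adjustment and with the GC adjustment and replicate block, and 4 with DESeq2; leaving out single libraries gave 0 to 6. Over all genes the TAA calls were 255 higher and 67 lower by edgeR, 1 and 0 with RLE factors, 2 and 0 with the replicate block, 1045 and 609 after the GC adjustment and 2036 and 1738 by DESeq2. The replicate block changed no other member's call; with it the log2 fold change of Junb was −1.04 (edgeR, adjusted p = 0.0802). The GC adjustment was chosen after seeing the data.

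Signs of members that were not called turned in some fits. With edgeR on recovered reads wild-type CCl4 against oil was 0.15 for Jund and 0.0031 for Junb, and the labelled group against oil was 0.0114 for Ier2 and −0.13 for Egr1. With MCC950 the GC adjustment, with or without the replicate block, gave 0.0121 for Ier3, 0.0148 for Myc, 0.0665 for Junb and 0.0186 for Atf3. Leaving out single libraries gave, for wild-type CCl4 against oil, −0.10 to 1.01 for Fos, −0.57 to 0.51 for Junb, −1.18 to 0.63 for Egr1 and −0.81 to 0.73 for Jund. For the labelled group against oil it gave −0.0773 to 0.44 for Junb, −0.59 to 1.22 for Egr1 and −0.54 to 0.20 for Ier2, and against wild-type CCl4 −0.69 to 0.0737 for Jun, −0.18 to 1.36 for Jund, −0.40 to 0.68 for Junb and −0.12 to 0.50 for Ier3. With MCC950 it gave −0.0565 to 0.0313 for Atf3 and −0.0939 to 0.0129 for Ier3. For the Jund share of the Jun family it gave −5.79 to 7.31 percentage points for the labelled group against oil. For TAA, Ier3 ranged from −0.51 to 0.0065, the latter without wild-type replicate 1. The causes were not tested. Depth limits Fosb in all tables and Atf3 and Ier3 in oil livers, where a library had 11 to 28 reads.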
